A study of Mus musculus with 20 samples.

Results

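Aminoacyl-tRNA synthetases are the enzymes that attach each amino acid to its transfer RNA (tRNA) before protein synthesis. One set of these enzymes serves the cytoplasm and another, also encoded in the nucleus and mostly named with a final 2, serves the ribosomes of mitochondria. Several cytosolic synthetases are held together by the scaffold proteins Aimp1, Aimp2 and Eef1e1 in the multisynthetase complex, and many cytosolic synthetase genes are known targets of Atf4, the transcription factor of the integrated stress response, which cells switch on when amino acids run short or when stress kinases phosphorylate the initiation factor eIF2. The mRNA levels of 36 synthetase genes, 20 cytosolic and 16 mitochondrial, were followed across the 10 groups of a pair of RNA-seq experiments. The rule for choosing them uses gene names and no measured value, and was set with earlier results of these data known. All 36 are listed in both count tables, among 13107 genes in the first experiment and 11210 in the second.

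The cells of both experiments, called p19/Nras, come from a liver tumour that Nras drove in a p19-null mouse, so that every group shares these changes. In the Myc experiment, Trim33-WT cells carried the guide sgCtrl and the CRISPR lines Trim33-KO1 and Trim33-KO2 carried sgTrim33, and each of the 3 lines carried either the pWZL vector alone (Ctrl) or Myc. In the HU experiment, Trim33-WT cells (sgCtrl) and Trim33-KO cells (sgTrim33, with no label saying which line) received vehicle, here called untreated, or 1 mM hydroxyurea (HU) for 4 h, a drug that depletes nucleotides and stalls replication forks. Each group has 2 libraries. The labels do not say whether these came from separate cultures, so that p-values measure the spread between libraries, which may be technical, and none of the comparisons can separate the deletion from other differences between the lines.

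Counts were scaled to the library totals with the TMM factors of edgeR (CPM). Tests were quasi-likelihood tests in edgeR. A gene was called at a Benjamini-Hochberg adjusted p, taken over all genes of the table, below 0.01 in the Myc experiment and below 0.05 in the HU experiment. The libraries of the Myc experiment held between 14753177 and 17949430 counts. Those of the HU experiment held between 2315327 and 3082202, and 71.9% of the counts from 1 to 50 in that table were even numbers, against 48.4% in the Myc experiment. A fragment may thus have been counted more than once in the HU table, so that the counts given for it may overstate its depth. The median log2 fold change over all genes lay between −0.011 and 0.017 in every comparison below. Trim33 mRNA fitted the labels of the HU experiment and of the Ctrl libraries, but not those of the Myc libraries: the libraries labelled WT Myc had 131 and 155 CPM, those labelled KO1 Myc had 185 and 193, and those labelled KO2 Myc 124 and 125. The summed CPM of 4 mesenchymal markers ran from 396 to 425 in KO1 Ctrl and from 375 to 377 in the libraries labelled KO2 Myc, but from 135 to 148 in KO2 Ctrl and from 68.4 to 72.1 in those labelled KO1 Myc. Of 10 hepatocyte markers the tables list Afp alone. Keratin genes (Krt8, Krt18 and Krt19) summed to between 1910 and 4306 CPM in the Myc experiment. Of 6 immune markers only Cd68 is listed, at no more than 6.30 CPM.

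The promoters of some cytosolic synthetase genes carry letters that are known as a binding element of Atf4. RefSeq promoter sequences (mouse build GRCm38.p6, from 250 bases before to 50 bases after the start of the gene) were given for 27 of the 36 genes, 13 cytosolic and 14 mitochondrial. The letters TGATGCA, the shared part of C/EBP-ATF elements, were searched on both strands. They stood in the promoters of 4 of the 13 cytosolic genes and 0 of the 14 mitochondrial genes, against 3.63% of all 27025 genes with a promoter in the table. All 4 genes fell in both Trim33-KO lines with the Ctrl vector. Most cytosolic genes did so, 16 of the 20 in all, so that the fall does not set the 4 apart. Not all of the 4 matches are reported here, and those of 3 genes are shown. Each is written 5′ to 3′ on the strand of the gene, with the matched letters in capitals; in Iars and Tars the gene strand reads TGCATCA, the reverse complement.
Yars, chr4:129189896-129189922, + strand: cgagctcagcTGATGCAacccgacggg
Iars, chr13:49682128-49682154, + strand: ctgtcagtatTGCATCAcctccagacg
Tars, chr15:11399656-11399682, − strand: ggagtcccgtTGCATCAgctggttagc
The match begins 14 bases before the annotated start in Tars, and just after it in Yars and Iars. The E-box letters CACGTG, which Myc is known to bind, were in 4 of the 13 cytosolic promoters and in 1 of the 14 mitochondrial promoters (Ears2), against 8.09% of all genes. The letters do not overlap between these motifs. A match describes the sequence and does not show that a factor was bound.

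Per length of their exons, cytosolic synthetase mRNAs stood far above mitochondrial ones in every group. In WT Ctrl the median was 103 CPM per kilobase over the 20 cytosolic genes and 4.87 over the 16 mitochondrial genes. Nars, the asparaginyl-tRNA synthetase, led with 450.5 ± 4.90 (SD, n = 2), followed by Gars for glycine with 301 ± 7.05 and Sars for serine with 268 ± 0.704. The lowest cytosolic mRNA per kilobase was Farsa, which encodes the alpha subunit of phenylalanyl-tRNA synthetase, with 16.4 ± 1.01. Among mitochondrial genes Lars2 for leucine led with 29.9 ± 1.61, followed by Iars2 for isoleucine with 16.7 ± 0.279, and Pars2 for proline was lowest with 1.71 ± 0.199 and between 71 and 81 counts. Reads of Iars2 may include some of Rab3gap2 on the opposite strand, which shares 22.7% of its exon bases, since no source states whether the counting used strand. In the HU experiment mitochondrial genes had as few as 10 counts in a library, so that small changes could not be detected there.

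**Figure D1:**
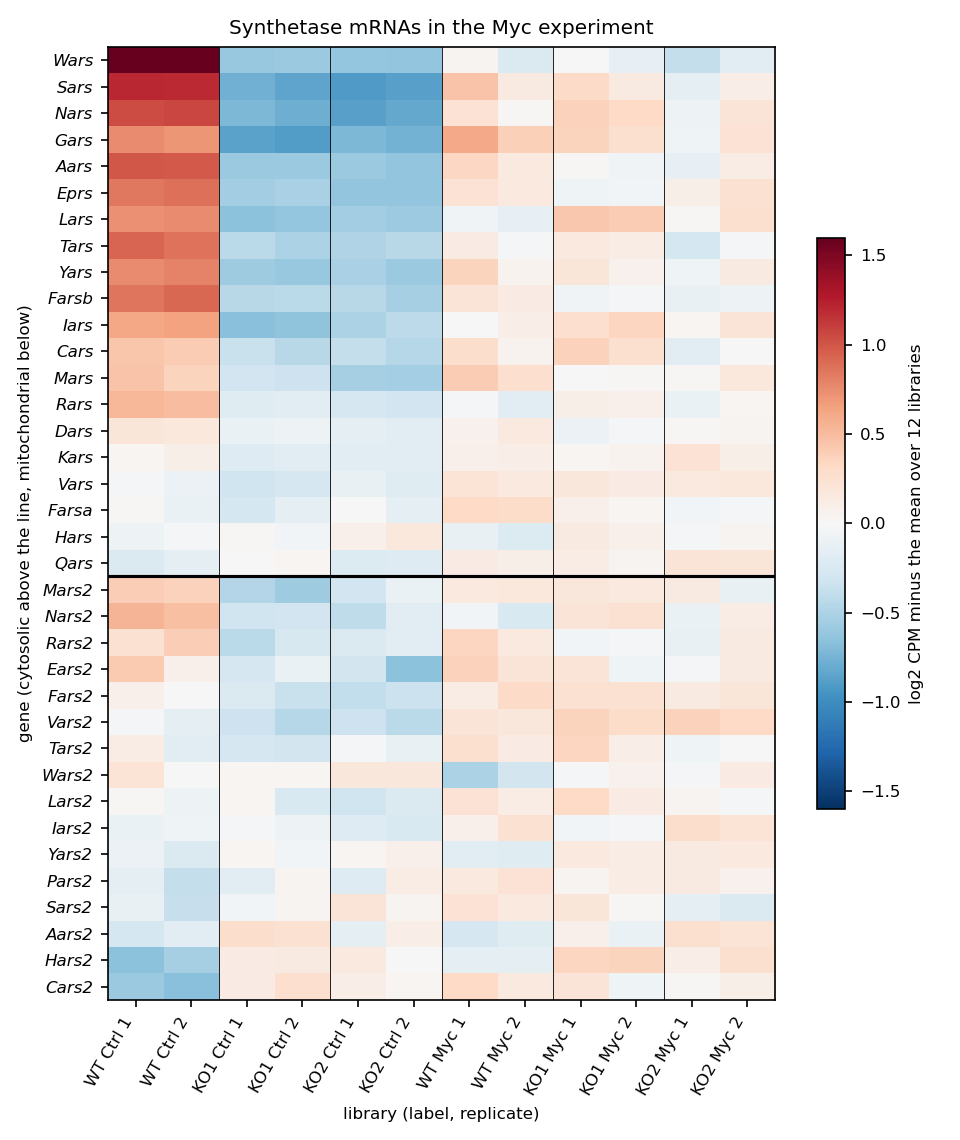
Heat map of the 36 synthetase genes (rows, cytosolic above the line) in the 12 libraries of the Myc experiment (columns, 2 per group). The colour is the log2 CPM of a library minus the mean of the 12 libraries, red for higher and blue for lower. The WT Ctrl columns are red and the KO1 Ctrl and KO2 Ctrl columns blue for most cytosolic genes, whereas mitochondrial genes show no common pattern.

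The comparison of Trim33-KO with Trim33-WT cells under the Ctrl vector asks how loss of Trim33 changes the transcriptome. Cytosolic synthetase mRNAs fell in both lines. In KO1, 17 of the 20 cytosolic genes were lower and 1 was higher, and in KO2 16 were lower and none was called higher, with a median log2 fold change (log2FC) of −1.31 and −1.20. Over all genes, 26.7% were called lower and 25.5% higher in KO1, and 26.6% and 23.3% in KO2, with medians of −0.0036 and −0.011. Farsa, Hars and Qars were not called lower in either line, nor Vars in KO2. Both comparisons share the WT Ctrl libraries. Of the 16 mitochondrial genes, 4 were lower and 3 higher in KO1, and 6 were lower and 2 higher in KO2, with medians of −0.07 and −0.09.

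Wars, the tryptophanyl-tRNA synthetase (Entrez 22375, mouse chromosome 12, 110098240 to 110132384 in build NCBIM37), fell most. WT Ctrl had 384 and 410.3 CPM, KO1 Ctrl 83.0 and 83.2, and KO2 Ctrl 82.2 and 81.2. Its 4 KO values were nearly equal and far below both WT values. Its log2FC was −2.26 in KO1 (standard error, SE, 0.0871, edgeR adjusted p = 2.79e-12) and −2.28 in KO2 (SE 0.0871, adjusted p = 4.81e-12), which is 0.209 and 0.206 of the WT level.

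Sars, the seryl-tRNA synthetase (Entrez 20226, chromosome 3, 108227783 to 108248127), followed. WT Ctrl had 980.1 and 976 CPM, KO1 Ctrl 249.9 and 238, and KO2 Ctrl 227 and 234. The KO libraries were alike and all lay below the WT libraries, with a log2FC of −2.01 in KO1 (SE 0.0958, edgeR adjusted p = 3.57e-11) and −2.09 in KO2 (SE 0.0961, adjusted p = 3.45e-11). Nars (Entrez 70223, chromosome 18, 64659319 to 64676211) stood at 1177 and 1195 CPM with WT Ctrl, while KO1 Ctrl had 345 and 331 and KO2 Ctrl 312 and 322. The most abundant synthetase mRNA per length thus fell as well, with a log2FC of −1.81 (SE 0.0837, edgeR adjusted p = 2.32e-11) and −1.90 (SE 0.084, adjusted p = 2.25e-11).

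The remaining cytosolic genes formed a graded series. Gars, Aars for alanine, Eprs, which charges both glutamate and proline, Lars for leucine, Tars for threonine, Yars for tyrosine, Farsb and Iars for isoleucine fell by between 1.10 and 1.61 on the log2 scale in both lines. Cars for cysteine, Mars for methionine and Rars for arginine fell by between 0.69 and 0.94. Dars for aspartate and Kars for lysine, whose product is also known to serve mitochondria, fell by between 0.23 and 0.33. Vars for valine was called only in KO1 (log2FC −0.24) and stood at −0.09 in KO2. Qars, the glutaminyl-tRNA synthetase, was the 1 cytosolic gene called higher, with 0.21 in KO1 and −0.02 in KO2, and Hars for histidine, with 0.04 and 0.18, was not called in either line.

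Members of the multisynthetase complex moved by unequal amounts. Of its 8 synthetases (Dars, Eprs, Iars, Kars, Lars, Mars, Qars and Rars), 7 were lower in each line, with a median log2FC of −0.71 in KO1 and −0.87 in KO2, against −1.37 in both lines for the 12 cytosolic genes outside it. Among the scaffolds, Aimp1 (log2FC −0.59 and −0.56) and Eef1e1 (−0.66 and −0.48) fell in both lines, and Aimp2 (−0.10 and −0.03) was not called. The subunits of phenylalanyl-tRNA synthetase also differed. Farsb, the beta subunit, had 209.6 and 218 CPM in WT Ctrl, while KO1 Ctrl had 85.0 and 85.8 and KO2 Ctrl 85.0 and 80.0. For Farsa, WT Ctrl had 77.6 and 71.2, KO1 Ctrl 63.3 and 69.1, and KO2 Ctrl 76.5 and 69.5. The Farsb groups were far apart, with a log2FC of −1.32 and −1.37, whereas Farsa had −0.17 and −0.03, was not called, and overlapped with WT in KO2. The difference between the subunits was not tested. Sgpp2 on the opposite strand shares 10.8% of the exon bases of Farsb.

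**Figure D2:**
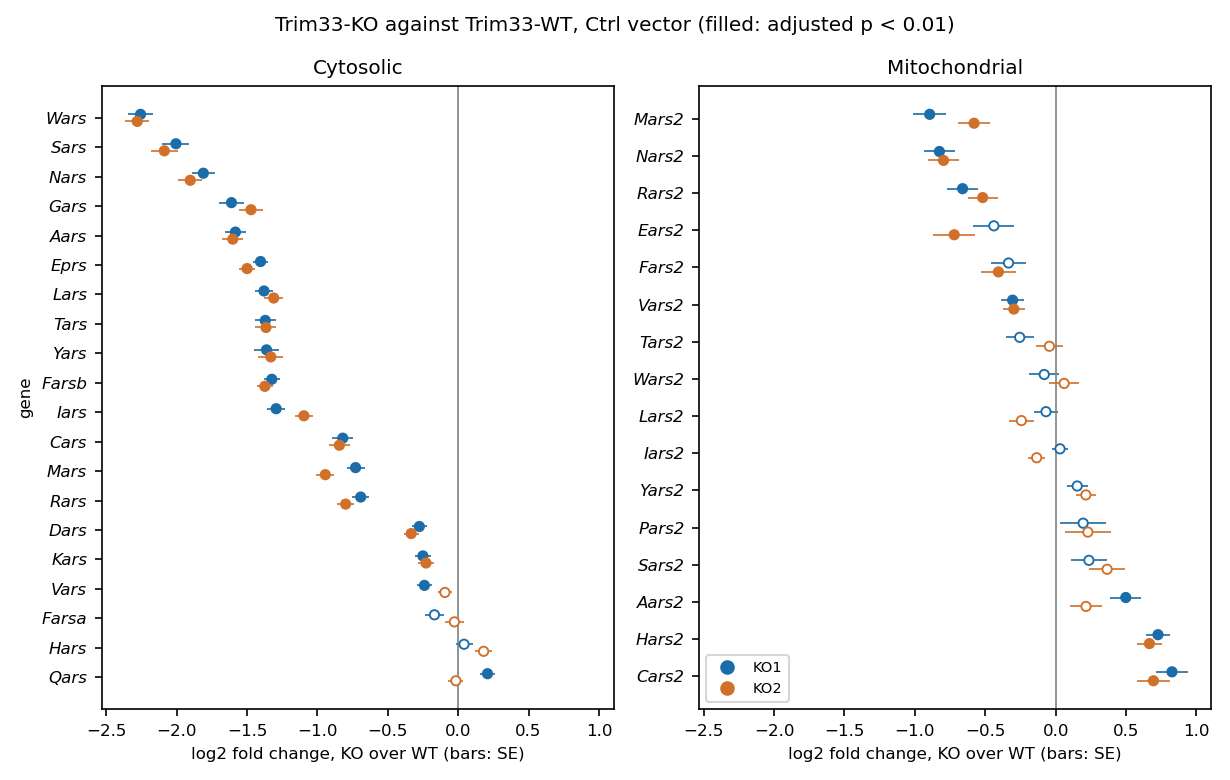
Log2 fold change of each synthetase gene in KO1 Ctrl (blue) and KO2 Ctrl (orange) against WT Ctrl, cytosolic genes on the left and mitochondrial genes on the right, with bars of 1 SE. Filled points have an adjusted p below 0.01; the cytosolic points run from −2.28 for Wars in KO2 to 0.21 for Qars in KO1, and the mitochondrial points lie on both sides of 0.

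Mitochondrial synthetase mRNAs moved in both directions. Mars2, Nars2, Rars2 and Vars2 fell in both lines, and Cars2 and Hars2 rose in both. For Mars2, the methionine enzyme (Entrez 212679), WT Ctrl had 17.2 and 17.0 CPM, KO1 Ctrl 9.51 and 8.87, and KO2 Ctrl 10.6 and 12.2. The groups did not overlap (log2FC −0.89 in KO1, SE 0.117, edgeR adjusted p = 5.31e-06, and −0.58 in KO2). Nars2, for asparagine (Entrez 244141), was 22.2 and 21.2 CPM in WT Ctrl and between 11.5 and 13.5 in the 4 KO Ctrl libraries, with a log2FC of −0.80 in KO2 (SE 0.11, edgeR adjusted p = 1.09e-05) and −0.83 in KO1. It thus fell in the same direction as its cytosolic counterpart Nars, by less. Ears2, for glutamate (Entrez 67417), was called in KO2 with a log2FC of −0.72 (SE 0.15, edgeR adjusted p = 0.000576). Its values were 18.7 and 14.8 CPM in WT Ctrl and 11.4 and 8.91 in KO2 Ctrl, and without replicate 1 of WT Ctrl or replicate 2 of KO2 Ctrl the call was lost.

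Cars2, for cysteine (Entrez 71941), went the other way from the cytosolic Cars. WT Ctrl had 12.4 and 11.8 CPM, KO1 Ctrl 20.4 and 22.4, and KO2 Ctrl 20.1 and 19.0, so that every KO library lay above both WT libraries (log2FC 0.83 in KO1, SE 0.113, edgeR adjusted p = 8.71e-06, and 0.69 in KO2). Hars2, the neighbour of Hars on the opposite strand with 195 shared exon bases, had a log2FC of 0.73 and 0.67.

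The WT Ctrl libraries stood apart from all others in these genes, and the contrast between the KO lines and WT rests on them. For 14 of the 20 cytosolic genes both WT Ctrl libraries lay above all 10 other libraries of the experiment, against 19.6% of all genes and 2 of the 16 mitochondrial genes. All 4 KO Ctrl libraries lay below the 8 others for 15 of the 20 cytosolic genes, against 8.39% of all genes and 4 of the 16 mitochondrial genes. The summed CPM of the 20 cytosolic genes was 9632 and 9623 in WT Ctrl, from 4172 to 4211 in the KO Ctrl groups, and between 5764 and 6912 in the 6 libraries labelled Myc. The mitochondrial sum ran from 511 to 569 CPM in the 6 Ctrl libraries and from 609 to 648 in the 6 labelled Myc, which did not overlap. Markers of cell state moved between the same Ctrl groups. Afp, a fetal liver gene, was lower in both lines (log2FC −5.19 for KO1, −1.92 for KO2), and so was Krt19, a bile duct keratin (−3.09 and −1.81). Pdgfrb, a mesenchymal receptor, was higher (log2FC 3.44 and 2.62). Of the 4 mesenchymal markers listed, 3 were higher in KO1, and 1 was higher and 2 lower in KO2, and their part in the change of the synthetases was not tested. With the Myc libraries left out of the fit, an alternative chosen after seeing the data, 27 of the 36 genes were called in KO1 and 26 in KO2, against 25 and 24 with them.

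A list of 19 genes for the integrated stress response and amino acid supply fell with the cytosolic synthetases. In each KO line 15 of the 19 were lower, against 26.7% and 26.6% of all genes, with medians of −2.02 and −1.93. In KO1 2 of the list were higher, and in KO2 1 was. For Atf4, WT Ctrl had 1230.3 and 1191 CPM, KO1 Ctrl 373 and 353, and KO2 Ctrl 339 and 336 (log2FC −1.74 and −1.84). Asns, the asparagine synthetase and a classical Atf4 target, was 652 and 655 in WT Ctrl and between 83.2 and 87.0 in the 4 KO Ctrl libraries (log2FC −2.96 and −2.94). Trib3, a pseudokinase induced by the same response, had the largest fall of the list, with −4.26 and −4.41. The list was chosen with earlier results of these data known, and its part in the change of the synthetases was not tested.

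Genes next to the synthetases in translation were less uniform. Of 9 elongation factors for both compartments, 2 were lower and 2 higher in KO1 and 3 were lower and 1 higher in KO2, with medians of 0.05 and −0.03. Of 13 other tRNA charging genes, 5 were lower and 3 higher in KO1 and 4 were lower and 3 higher in KO2. Over all genes, 26.7% were lower and 25.5% higher in KO1, and 26.6% and 23.3% in KO2. The elongation factors were called at 44.4% in both lines and the tRNA charging genes at 61.5% and 53.8%. These shares lay near the 52.2% and 49.9% of all genes. Sepsecs, which makes selenocysteinyl-tRNA from the seryl-tRNA that Sars supplies, fell (log2FC −1.16 and −0.89), while Pstk, the kinase one step earlier in the same pathway, rose (0.83 and 0.71). Of 12 interferon response genes, which are given here because Wars is known to be induced by interferon, 5 were higher and 2 lower in KO1 and 2 were higher and 4 lower in KO2. Their summed CPM was 72.0 to 76.0 in WT Ctrl, 115 to 117 in KO1 Ctrl and 90.0 to 93.0 in KO2 Ctrl. Their median log2FC was 0.29 in KO1 and −0.28 in KO2, so that the sum and the median differ in direction in KO2.

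The Myc vector adds the question of how the oncogene acts on the transcriptome with and without Trim33. Because Trim33 mRNA went against the labels in these libraries, each direction below is that of the labels. Trim33 was 123 and 130 CPM in KO1 Ctrl, near KO2 Myc, and 201 and 207 in KO2 Ctrl, near KO1 Myc. Krt19 was 48.6 and 46.8 CPM in KO1 Ctrl and 48.9 and 49.6 in KO2 Myc. It was 112 and 119 in KO2 Ctrl and 135 and 139 in KO1 Myc. Each comparison of Myc with Ctrl in KO1 or KO2, and each interaction, may thus span different lines, which was not tested. Myc mRNA was 433 and 439 CPM in WT Ctrl and 456 and 458 in the libraries labelled WT Myc. In KO1 it was 186 and 196 with Ctrl and 621 and 646 in the libraries labelled Myc, and in KO2 it was 210.3 and 219 against 459 and 499. A rise of Myc mRNA between Ctrl and Myc libraries was thus seen in the KO lines (log2FC 1.73 and 1.16) and not called in WT (0.07).

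Cytosolic synthetase genes followed opposite directions in WT and KO lines. In WT, comparing the libraries labelled Myc with Ctrl, 12 of the 20 cytosolic genes were lower and 3 (Farsa, Qars and Vars) higher, against 22.7% lower and 21.6% higher over all genes. The median log2FC was −0.57, against 0.0069 over all genes. In KO1, 17 of the 20 were called and all 17 were higher with Myc, against 17.9% of all genes called higher. In KO2, 18 of the 20 were higher, against 20.2% of all genes. The medians were 0.51 and 0.40. These comparisons share the Ctrl libraries with those of KO against WT above.

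Wars was 130.0 and 107 CPM in the libraries labelled WT Myc, below both WT Ctrl values (log2FC −1.74, SE 0.0844, edgeR adjusted p = 2.01e-10). It was 127 and 115 in KO1 and 96.4 and 112 in KO2 with Myc, each above the 4 KO Ctrl values (log2FC 0.54 and 0.35). The libraries labelled WT Myc overlapped with both KO groups labelled Myc, and all 6 lay well below WT Ctrl. Nars was 669 and 574 CPM in the libraries labelled WT Myc (log2FC −0.93, SE 0.0814, edgeR adjusted p = 1.11e-07). In KO1 it reached 736 and 708 with Myc (log2FC 1.09, SE 0.0825, adjusted p = 2.18e-08), and in KO2 539 and 659 (log2FC 0.92, SE 0.0824, adjusted p = 1.63e-07). Again the Myc groups lay between KO Ctrl and WT Ctrl.

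Sars had the same order, with 584 and 471 CPM in the libraries labelled WT Myc (log2FC −0.89, SE 0.0922, edgeR adjusted p = 7.25e-07), 526 and 471 in KO1 Myc (log2FC 1.03) and 381 and 459 in KO2 Myc (log2FC 0.87, SE 0.0941, adjusted p = 1.43e-06). Gars, whose transcripts are known to serve both compartments, was 552 and 516 CPM in KO1 Myc, against 238 and 232 in KO1 Ctrl (log2FC 1.18, SE 0.0858, edgeR adjusted p = 1.43e-08). In KO2 it went from 262 and 256 to 413 and 506 (log2FC 0.83, SE 0.0852, adjusted p = 7.92e-07). Its rise in KO1 was the largest of the 36 genes. In WT, Gars was 730.1 and 706 CPM with Ctrl and 658 and 561 in the libraries labelled Myc, which was not called (log2FC −0.24). Lars was 200.01 and 205 CPM in KO1 Ctrl and 425 and 417 in KO1 Myc (log2FC 1.06, SE 0.0662, edgeR adjusted p = 2.77e-09).

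**Figure D3:**
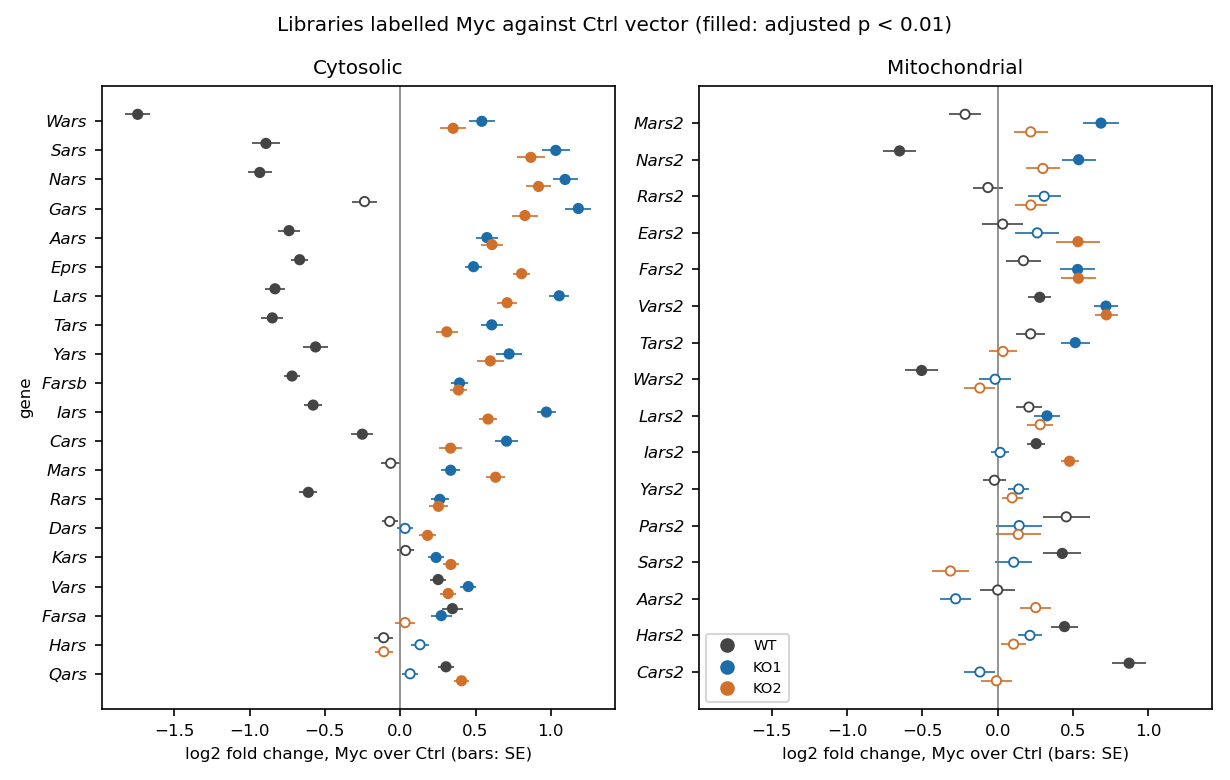
Log2 fold change of each synthetase gene between libraries labelled Myc and Ctrl libraries, in WT (grey), KO1 (blue) and KO2 (orange), with bars of 1 SE and filled points for an adjusted p below 0.01. Among cytosolic genes the WT points run from −1.74 for Wars to 0.35 for Farsa, while the called points of KO1 and KO2 are all positive, up to 1.18 for Gars in KO1.

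Mitochondrial genes with a call rose in the KO lines. In KO1, 6 of the 16 were higher with Myc, against 17.9% of all genes (Fars2, Lars2, Mars2, Nars2, Tars2 and Vars2), and in KO2 4 were higher (Ears2, Fars2, Iars2 and Vars2), a share close to the 20.2% of all genes. Vars2, for valine (Entrez 68915), was 29.9 and 27.3 CPM in KO1 Ctrl and 48.1 and 45.9 in KO1 Myc (log2FC 0.72, SE 0.0769, edgeR adjusted p = 1.19e-06). In KO2 it was 29.7 and 27.8 with Ctrl and 48.2 and 46.6 with Myc (log2FC 0.72, SE 0.0764, adjusted p = 1.06e-06). It was also higher in WT Myc (log2FC 0.28) and was, with Vars, one of the genes called higher in all 3 comparisons. Mars2 was 14.9 and 14.7 CPM in KO1 Myc, up from 9.51 and 8.87 (log2FC 0.69, SE 0.117, edgeR adjusted p = 0.000152). Fars2, for phenylalanine, was 10.3 and 10.7 CPM in KO2 Myc and 7.12 and 7.35 in KO2 Ctrl (log2FC 0.54, SE 0.119, edgeR adjusted p = 0.00131). This call was lost with DESeq2, and also without replicate 1 of KO2 Ctrl or replicate 2 of KO2 Myc.

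In WT, 5 of the 16 mitochondrial genes were higher and 2 lower with Myc, against 21.6% and 22.7% of all genes. Cars2 rose from 12.4 and 11.8 CPM to 23.4 and 20.9 (log2FC 0.87, SE 0.112, edgeR adjusted p = 7.15e-06), while in the KO lines it differed little between Ctrl and Myc (log2FC −0.12 and −0.01, not called). Nars2 fell from 22.2 and 21.2 CPM to 14.8 and 12.9 (log2FC −0.65, SE 0.108, adjusted p = 8.95e-05). The other fall was that of Wars2 (log2FC −0.50).

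The interaction, the log2FC of Myc against Ctrl in a KO line minus that in WT, tests whether these changes differed. It contains the same WT Ctrl and KO Ctrl libraries as the comparison of KO with WT above, so that it is not independent of that comparison. Of the 20 cytosolic genes 14 were called in KO1 and 15 in KO2, each with a positive value, against 19.2% and 16.6% of all genes, with medians of 1.13 and 1.08. The largest values were those of Wars, 2.28 in KO1 (SE 0.121, edgeR adjusted p = 5.48e-10) and 2.09 in KO2 (SE 0.121, adjusted p = 1.52e-09). Nars had 2.03 (SE 0.116, adjusted p = 1.27e-09) and 1.85 (SE 0.116, adjusted p = 3.77e-09), and Sars 1.92 (SE 0.132, adjusted p = 8.87e-09) and 1.76 (SE 0.132, adjusted p = 3.07e-08). Of the 16 mitochondrial genes, 3 were called higher and 1 lower in KO1, against 18.1% of all genes called lower, and 2 higher and 2 lower in KO2, against 16.2% lower. Nars2 was among the higher, with 1.19 (SE 0.155, edgeR adjusted p = 1.05e-05) and 0.95 (SE 0.156, adjusted p = 0.00012), and Cars2 among the lower, with −0.99 (SE 0.153, adjusted p = 5.56e-05) and −0.88 (SE 0.153, adjusted p = 0.000206).

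In the KO lines the genes of the integrated stress response list moved with the synthetases here too. With Myc, 15 of the 19 were higher in each KO line, against 17.9% and 20.2% of all genes. In KO1 2 were lower. In WT 7 were lower, against 22.7% of all genes. The median log2FC of the list was −0.18 in WT, where that of the cytosolic synthetases was −0.57. Asns was 437 and 353 CPM in the libraries labelled WT Myc (log2FC −0.73), 315 and 283 in KO1 Myc (log2FC 1.84) and 216 and 286 in KO2 Myc (log2FC 1.56). Atf4 was 1122 and 956 CPM in WT Myc, where its log2FC of −0.22 was not called, and rose in KO1 (1.33) and KO2 (1.14). The summed CPM of the list was 5121 to 5862 in WT Myc, 4764 to 4979 in KO1 Myc and 3917 to 4747 in KO2 Myc, against 6865 to 6963 in WT Ctrl and 2033 to 2141 in the KO Ctrl groups. Whether this bears on the synthetases was not tested.

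Among the libraries labelled Myc, fewer synthetase genes were called between KO and WT than with the Ctrl vector, and so were fewer of all genes. In KO1, 11 of the 36 genes (30.6%) were called, against 25.1% of all genes, and in KO2 12 (33.3%) were called, against 35.2%, so that both shares lay near those of all genes. With the Ctrl vector they were 69.4% and 66.7%, against 52.2% and 49.9% of all genes. The cytosolic medians were −0.04 and −0.13, with 3 higher and 5 lower in KO1 (12.6% and 12.5% of all genes) and 1 higher and 7 lower in KO2 (17.2% and 18.0%). These counts depended on single libraries: the KO1 count was 3 without replicate 1 and 4 without replicate 2 of KO1 Myc, and the KO2 count 5 without replicate 1 of KO2 Myc. The replicates of WT Myc also differed more than those of any other group, by 11.8 times counting noise (mean squared difference) against 2.29 to 4.75 in the other 5 groups. With the compared groups alone in the fit, 2 and 1 genes were called.

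Lars was higher in KO1 Myc, at 425 and 417 CPM against 304 and 289 in WT Myc (log2FC 0.51, SE 0.0651, edgeR adjusted p = 1.67e-05). Hars was 124 and 119 against 103 and 96.4 (log2FC 0.28, SE 0.06, adjusted p = 0.00151). Mars was 265 and 269 in KO1 Myc against 352 and 319.9 in WT Myc (log2FC −0.33, SE 0.0627, adjusted p = 0.000612). The groups of these 3 genes did not overlap, but the calls of Hars and Mars were lost without replicate 1 of KO1 Myc. In KO2 Myc, Gars was 413 and 506 CPM against 658 and 561 (log2FC −0.41, SE 0.0837, edgeR adjusted p = 0.00082) and Sars 381 and 459 against 584 and 471 (log2FC −0.33, SE 0.0922, adjusted p = 0.0078). Both calls were lost without replicate 1 of KO2 Myc, where the log2FC was −0.27 and −0.20, and that of Sars also without replicate 1 of WT Myc (−0.16). With only genes of at least 5 CPM in every library, the call of Sars was lost too. Farsa was 74.3 and 75.0 CPM against 95.6 and 93.6 (log2FC −0.34, SE 0.0673, edgeR adjusted p = 0.000581), well apart in both groups.

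The mitochondrial genes called between these groups, 3 of the 16 in KO1 and 4 in KO2, were higher than in WT Myc, against 12.6% and 17.2% of all genes called higher. The mitochondrial genes did not rise as a set, since their medians were 0.03 and −0.07, and 9 of the 16 had a negative log2FC in KO2. Hars2 was 35.9 and 36.3 CPM in KO1 Myc against 25.7 and 25.4 in WT Myc (log2FC 0.50, SE 0.0815, edgeR adjusted p = 0.000173), and Aars2, for alanine, 17.2 and 16.7 in KO2 Myc against 11.97 and 12.5 (log2FC 0.47, SE 0.107, adjusted p = 0.00182). Wars2, for tryptophan, was 11.3 and 13.1 CPM in WT Myc, 15.7 and 16.7 in KO1 Myc (log2FC 0.41, SE 0.109, edgeR adjusted p = 0.00774) and 15.8 and 17.5 in KO2 Myc (log2FC 0.45, SE 0.108, adjusted p = 0.0028). Its calls were lost without replicate 1 of WT Myc in both lines, and also without either KO1 Myc library or without replicate 2 of KO2 Myc. The call of Wars2 in KO1 was lost with DESeq2 as well. The call of Aars2 was lost without replicate 1 of KO2 Myc.

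**Figure D4:**
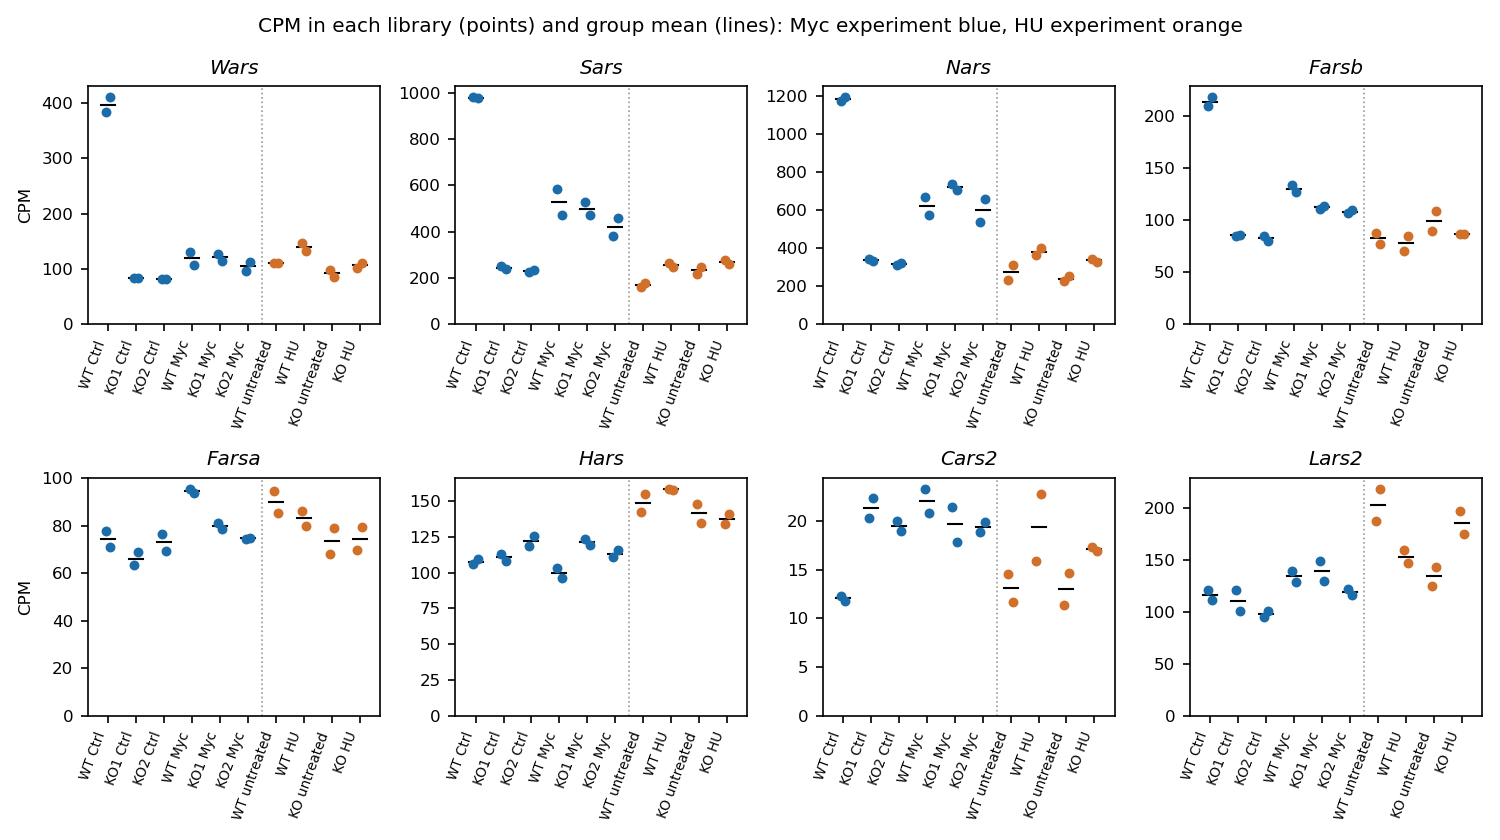
CPM of 8 synthetase genes in each of the 20 libraries (points) with the group mean (line), for the Myc experiment (blue) and the HU experiment (orange), which were normalised separately. Wars, Sars, Nars and Farsb are highest in both WT Ctrl libraries, Farsa and Hars vary little, Cars2 is lowest in WT Ctrl among the blue points, and Lars2 moves in opposite directions with HU in WT and KO cells.

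The HU experiment asks how replication stress changes transcripts in cells with and without Trim33. Few synthetase genes were called. In WT, 4 of the 20 cytosolic genes (Aars, Gars, Nars and Sars) were higher with HU, against 6.39% of all genes called higher, and 1 of the 16 mitochondrial genes, Lars2, was lower, against 3.44% of all genes. The cytosolic median was 0.20 and the mitochondrial median −0.19. In KO, 2 cytosolic genes (Aars and Nars) and Lars2 were higher, against 4.65% of all genes, with medians of 0.10 and −0.04. In all, 14 of the 20 cytosolic and 15 of the 16 mitochondrial genes were called in no comparison of this experiment. Calls were also few among all 11210 genes, with 1102 for HU in WT and 723 for HU in KO. Between KO and WT, 1349 were called untreated and 1233 under HU, and 8 for the difference between the HU effects. How many of all genes were called in none was not counted, so that the lack of calls does not set the synthetases apart. The depth of the HU experiment was lower and its spread between replicates wider than in the Myc experiment (common coefficient of variation 0.102 against 0.0498).

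Aars, the alanyl-tRNA synthetase (Entrez 234734), rose most. It was 239 and 254 CPM in untreated WT and 397 and 450.2 in HU-treated WT (log2FC 0.78, SE 0.109, edgeR adjusted p = 1.06e-07). In KO it went from 229.7 and 234 to 373 and 337 (log2FC 0.62, SE 0.11, adjusted p = 3.42e-05). Every treated library lay above every untreated one.

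Sars was 161 and 176 CPM in untreated WT and 262 and 246 after HU (log2FC 0.59, SE 0.117, edgeR adjusted p = 0.000161), and in KO 216 and 247 before and 276 and 262 after HU (log2FC 0.21, not called). The difference between these HU effects was −0.38 and was not called either. Nars was 230.5 and 314 CPM in untreated WT, 364 and 399 in treated WT (log2FC 0.48, SE 0.115, edgeR adjusted p = 0.0022), 227 and 252 in untreated KO, and 341 and 329.6 in treated KO (log2FC 0.48, SE 0.116, adjusted p = 0.00328). The WT value rests on 1 untreated library: without replicate 1 of untreated WT it was 0.27 and no longer called. The call in WT was also lost without replicate 2 of treated WT, and that in KO without replicate 1 of untreated or of treated KO.

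Lars2, the mitochondrial leucyl-tRNA synthetase (Entrez 102436, chromosome 9, 123276058 to 123371782), changed in opposite directions. It was 188 and 218 CPM in untreated WT and 159 and 147 in treated WT (log2FC −0.41, SE 0.124, edgeR adjusted p = 0.0224). In untreated KO it was 125 and 143 and in treated KO 197 and 175 (log2FC 0.47, SE 0.127, adjusted p = 0.0113). The groups of each pair did not overlap. The difference between the HU effects was 0.88 (SE 0.178, adjusted p = 0.0168), 1 of only 8 such calls among all genes (0.0714%). Without replicate 1 of untreated WT or replicate 2 of untreated KO, this call remained, and without any 1 of the 6 other libraries it was lost. The call in WT was lost without replicate 2 of untreated WT or either treated WT library, and that in KO without replicate 1 of untreated or of treated KO. For the other 15 mitochondrial genes and for all 20 cytosolic genes no difference between the HU effects was called by edgeR or DESeq2, and of the 36 genes 3 had an unadjusted p below 0.05 in edgeR's test.

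**Figure D5:**
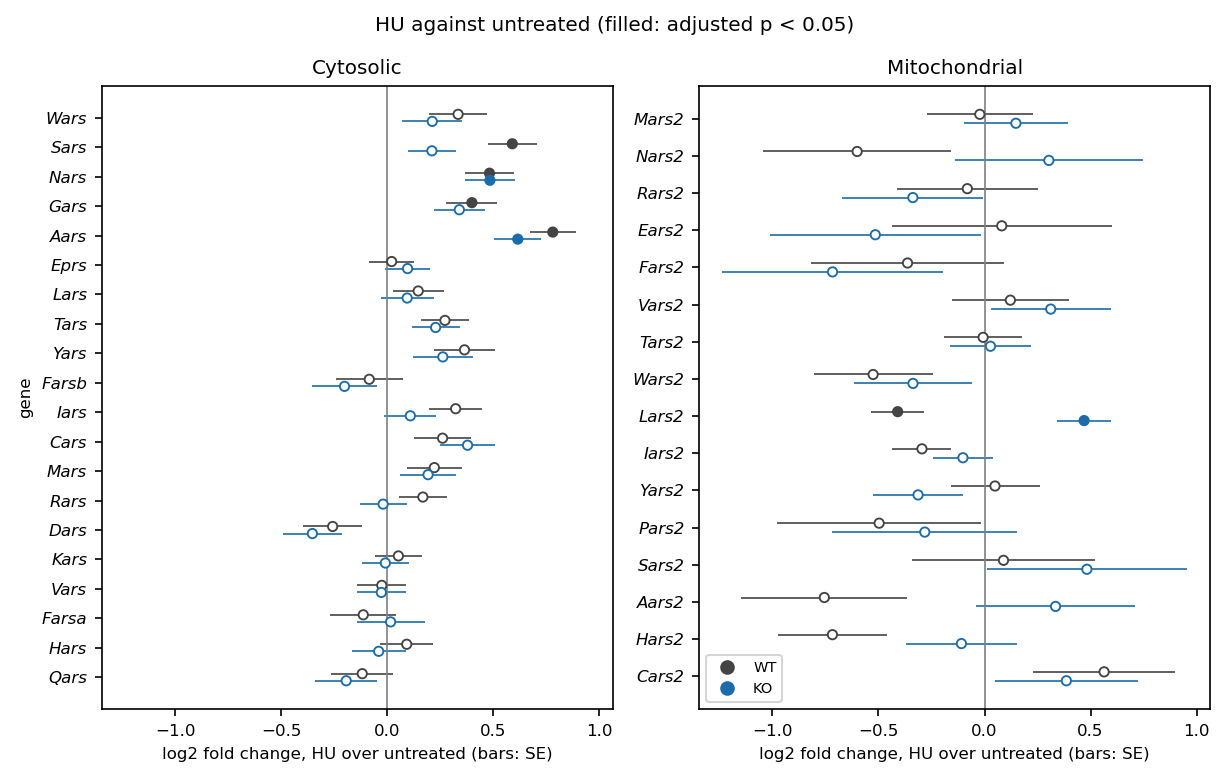
Log2 fold change of each synthetase gene between HU-treated and untreated cells in WT (grey) and KO (blue), with bars of 1 SE and filled points for an adjusted p below 0.05. Aars (0.78 and 0.62) and Nars are called in both, and the Lars2 points lie on opposite sides of 0, at −0.41 in WT and 0.47 in KO.

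Without HU, 1 of the 36 genes was higher and 2 were lower in KO than in WT, against 6.29% and 5.74% of all genes. Sars was higher in KO (216 and 247 CPM against 161 and 176, log2FC 0.46, SE 0.118, edgeR adjusted p = 0.00535). Lars was lower (150.4 and 136 against 179 and 201, log2FC −0.41, SE 0.124, adjusted p = 0.0192), and so was Lars2 (log2FC −0.60, SE 0.127, adjusted p = 0.000603). Without replicate 2 of untreated KO the calls of Sars and Lars were lost. That of Sars was also lost without replicate 1 of untreated WT. The call of Lars was lost without replicate 2 of untreated WT, and with the compared groups alone in the fit. Over all settings the log2FC ran from 0.36 to 0.54 for Sars and from −0.50 to −0.33 for Lars. Wars was 110.5 CPM in both untreated WT libraries and 98.4 and 85.9 in untreated KO, and Nars 230.5 and 314 against 227 and 252. Neither was called (log2FC −0.27 and −0.19), and the cytosolic median was 0.06, where the Myc experiment had −1.31 and −1.20 between KO lines and WT under the Ctrl vector.

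Under HU, 1 of the 36 genes was higher and 1 lower in KO than in WT, against 5.75% and 5.25% of all genes. Cars was higher in KO, at 167 and 174 CPM against 124 and 122 (log2FC 0.47, SE 0.13, edgeR adjusted p = 0.00984). Lars was lower, at 156 and 149 against 208 and 214 (log2FC −0.47, SE 0.121, adjusted p = 0.00595). Lars was thus lower in KO with and without HU. The count fell to 0 or 1 without any 1 of the 4 libraries compared: the call of Cars was lost without any of them, and that of Lars without either treated WT library or without replicate 2 of treated KO. With these groups alone in the fit it was 5.

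The integrated stress response list rose with HU in both genotypes. Of its 19 genes 13 were higher in WT and 13 in KO, against 6.39% and 4.65% of all genes, with medians of 0.86 and 0.84. Atf4 was 318 and 324 CPM in untreated WT and 643 and 645 after HU (log2FC 1.00), and 274 and 321 in untreated KO and 562 and 508 after HU (0.84). Asns had a log2FC of 0.87 and 0.82. The largest rises were those of Atf3 (6.26 and 6.03), a transcription factor of this response, and of Chac1 (4.97 and 4.43), an enzyme that degrades glutathione. The synthetases moved far less than these genes. Between untreated KO and WT, 1 of the 19 genes was called. The 9 elongation factors had no call in WT or KO under HU in edgeR's test, with 3 of the 9 at an unadjusted p below 0.05 in WT. Of 13 other tRNA charging genes, 2 were lower in WT.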

How the data were processed

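RNA-seq was measured in 20 libraries of p19/Nras cells, 2 for each of 10 groups, and groups and replicate numbers were taken from the sample labels. Per the labels, the authors mapped reads to mm9 with STAR 2.5.4. The authors deposited whole-number counts per gene, with Entrez identifiers and symbols, in 1 table per experiment; the counting tool, its annotation and its use of strand are not given in the sources used here. The name of one table calls its values normalized, but its totals differ between libraries. The 8 deposited tables of the authors' own edgeR comparisons (fold changes, p-values) were not used.

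Each table was fitted alone in edgeR 4.0.16 (R 4.3.3, limma 3.58.1) with all its libraries, TMM factors from 0.958 to 1.019 and from 0.982 to 1.020, 1 coefficient per group, no replicate block and glmQLFTest, with Benjamini-Hochberg adjustment over all genes. The low-count filter removed 0 genes. The SE is the absolute log2FC divided by the square root of F. Thresholds of 0.01 and 0.05 follow the study. With 2 libraries per group no permutation of labels can reach such values, so that the tests rest on a spread shared between genes and groups. In counts simulated for KO1 against WT with the Ctrl vector, 88% of 200 genes with an absolute log2FC of 1 were recovered among 13107 genes. In that simulation 5 unchanged genes were called. For HU against untreated in WT, 77% were recovered among 11210 genes and 13 unchanged genes were called. The simulation gave every gene the same spread and changed only 200 genes. In the data 6842 and 1102 genes were called in these comparisons, so that the simulated shares may not hold for them. Alternatives were DESeq2 1.42.0, other size factors, library totals, a 5 CPM filter, no filter, the compared groups alone, a replicate block, counts divided by 2 (HU experiment), each library left out, and 2 settings added after seeing the data (the mean of both KO lines, and a fit without the libraries labelled Myc).

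Gene positions and exon lengths are those of GENCODE vM1 on NCBIM37 (mm9), and promoters those of RefSeq on GRCm38.p6. The members, lists and motifs were chosen with earlier results of these data known. In each comparison the 3 cytosolic and 2 mitochondrial called genes with the largest absolute log2FC are given by library, other members by counts and ranges, and in other lists at most 2 called genes beside Trim33, Myc, Aimp1, Aimp2, Eef1e1, Atf4 and Asns. Farsa in the comparison of subunits and the genes set beside those of another comparison were picked once their values were known. Other data types of the study were not analysed here, and some sequences and genes are not reported here.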

Additional observations from a re-analysis of the deposited data

Results flagged for a closer look

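The test of the difference between groups passed its threshold for Myc in 18 synthetase genes in KO1 and 19 in KO2, and for HU in 1. Of these results 11 were flagged. The log2FC of Myc against Ctrl was higher in KO1 than in WT by 2.28 for Wars, 2.03 for Nars, 1.92 for Sars and 1.19 for Nars2, and lower for Cars2 (difference −0.99). In KO2 the differences from WT were 2.09 for Wars, 1.85 for Nars, 1.76 for Sars, 0.95 for Nars2 and −0.88 for Cars2. These genes were picked as those with the largest interaction among called members. Their interactions are not independent of the comparisons of KO with WT under the Ctrl vector, which use the same Ctrl libraries. The log2FC of HU was higher in KO than in WT by 0.88 for Lars2.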

How the results depend on the processing

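The number of synthetase genes called was within 1.5 times the value reported under every alternative for KO1 and KO2 against WT with the Ctrl vector, for Myc against Ctrl in all 3 lines and for the Myc interactions. For KO1 against WT with the Myc vector (11 called), DESeq2 called 7, the compared groups alone gave 2, and leaving out 1 library gave 3 to 13. For KO2 against WT with the Myc vector (12 called), the compared groups alone gave 1 and leaving out 1 library 5 to 14. In the HU experiment, leaving out 1 library gave 2 to 6 calls for HU in WT (5 called), 1 to 3 for HU in KO (3 called), 1 to 3 for untreated KO against WT (3 called), 0 to 1 for KO against WT under HU (2 called) and 0 to 1 for the difference between the HU effects (1 called). Under HU, KO against WT gave 5 with the compared groups alone. Replicate deviations of same-numbered libraries correlated between −0.35 and 0.47 in the Myc experiment and between −0.044 and 0.14 in the HU experiment, with no common direction. The highest value was that of KO1 Myc with WT Myc and the lowest that of KO2 Myc with WT Myc. Whether these groups share a batch was not tested. A replicate block gave 5 calls for HU in KO and moved no other count by over 1.5 times. Taking the mean of both KO lines for Myc against Ctrl, a setting chosen after seeing the data, called 26. The 58 gene results given by library were recomputed 715 times in all, of which 663 kept direction and call, 52 kept the direction and lost the call, and none reversed. The causes were not tested. The depth of the HU experiment limits what can be said of mitochondrial synthetases, which had as few as 10 counts in a library.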
